A study of Mus musculus with 6 samples.

Results

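The genes described here encode the parts of the inflammasome, the cytosolic complex that activates inflammatory caspases: the sensors Nlrp3, Nlrc4 and Aim2, the adaptor ASC (gene Pycard), the proteases Casp1 and Casp4, the pore-forming gasdermin D (Gsdmd), and the NLRP3-binding proteins Nek7 and Txnip. Every array probe whose transcript accession belongs to these genes in RefSeq was kept, which gave 13 probes of 9 genes. The whole array held 56605 probes, of which 33767 matched 23462 genes. RNA came from BV2, an immortalized mouse microglial line, and was measured on 6 single-colour Agilent arrays. The control group was 3 arrays of cells labelled as without PGC-1α overexpression, and the other group was 3 arrays of cells labelled as with it. PGC-1α, the product of Ppargc1a, is a transcriptional coactivator known for its role in mitochondrial biogenesis. All 6 samples had received lipopolysaccharide (LPS), a component of the bacterial outer membrane, so neither group was unstimulated. In the cell culture methods LPS was given at 500 ng/ml for 6 h. Those methods describe overexpression by a lentivirus with a puromycin resistance gene, a negative control virus, and puromycin selection of the overexpressing cells. The labels do not say whether the control arrays carried the negative control virus, and they name no ATP, which the study added in its NLRP3 activation experiments. The comparison asks how the RNA of the inflammasome parts differed with PGC-1α overexpression in LPS-stimulated cells.

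Inflammasomes work in steps. A sensor detects a danger signal, NLRP3 a loss of cellular homeostasis such as potassium efflux, NLRC4 bacterial flagellin or secretion-system proteins through NAIP receptors, and AIM2 double-stranded DNA in the cytosol. It recruits ASC, ASC gathers caspase-1, and the activated caspase-1 matures interleukin-1β and interleukin-18 and cleaves gasdermin D, whose fragment forms pores in the plasma membrane. In macrophages and microglia Nlrp3 is itself induced through NF-κB when LPS is sensed, a step called priming. Assembly and cleavage happen to proteins and leave no direct trace in RNA.

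The 250 bases before the transcription start site are shown for the most reduced and the most increased of these genes, Nlrp3 and Txnip, and for Casp1 and Casp4, neighbours on chromosome 9 and the only members whose windows held any of the motifs searched. The sequences are from RefSeq, build GRCm38.p6, plus strand, for chr11:59541319-59541568 (Nlrp3, the first of 2 start sites), chr3:96557707-96557956 (Txnip), chr9:5298267-5298516 (Casp1) and chr9:5308599-5308848 (Casp4, the first of 2 start sites). They read 5′ to 3′, and capitals mark a motif match.
Nlrp3: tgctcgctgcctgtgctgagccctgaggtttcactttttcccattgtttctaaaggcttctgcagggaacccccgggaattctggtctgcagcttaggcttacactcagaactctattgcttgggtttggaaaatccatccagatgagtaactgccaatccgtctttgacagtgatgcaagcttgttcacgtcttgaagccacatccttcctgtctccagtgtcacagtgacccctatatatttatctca
Txnip: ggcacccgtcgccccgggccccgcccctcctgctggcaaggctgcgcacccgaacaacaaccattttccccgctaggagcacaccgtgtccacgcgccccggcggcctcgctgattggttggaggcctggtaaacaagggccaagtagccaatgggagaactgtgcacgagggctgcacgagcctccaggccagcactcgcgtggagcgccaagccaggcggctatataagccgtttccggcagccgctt
Casp1: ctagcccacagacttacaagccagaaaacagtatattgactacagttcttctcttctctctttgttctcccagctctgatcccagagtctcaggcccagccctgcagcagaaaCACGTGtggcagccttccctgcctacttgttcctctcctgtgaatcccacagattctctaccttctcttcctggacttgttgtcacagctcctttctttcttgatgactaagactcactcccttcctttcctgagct
Casp4: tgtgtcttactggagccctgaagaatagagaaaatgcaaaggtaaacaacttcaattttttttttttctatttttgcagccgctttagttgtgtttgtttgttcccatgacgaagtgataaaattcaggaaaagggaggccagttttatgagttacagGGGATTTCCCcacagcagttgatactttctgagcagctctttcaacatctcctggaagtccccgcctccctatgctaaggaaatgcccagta

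RefSeq windows were held for 8 of the 9 genes, all but Gsdmd, 10 windows in all, and 5 motifs were searched on both strands. The κB motif, the kind of site that NF-κB binds, was matched in both overlapping windows of Casp4 and in no other of these genes, 92 to 83 bases before the first start site and 103 to 94 bases before the second, as the same stretch of DNA. Of the 32851 windows of all genes, 0.980% held this motif. The E-box CACGTG, a motif bound by many basic helix-loop-helix factors, was matched in Casp1, 137 to 132 bases before the start, and 6.02% of all windows held it. The estrogen-related receptor element TCAAGGTCA, the core of the interferon-stimulated response element and the AP-1 motif TGACTCA were matched in 0 of the 10 windows, against 0.387%, 2.98% and 4.46% of all windows. A match is a match of letters and not a measured binding site.

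Probe values below are log2 intensities with the array's 75th percentile subtracted, and a log2 fold change is the mean with PGC-1α overexpression minus the mean of the controls. The arrays stood at different brightness: the 75th percentile was 1617 to 1893 intensity units on the control arrays and 856 to 1268 with overexpression, and 41122 to 45165 of 59305 spots were well above background. The 38920 tested probes had a median log2 fold change of 0.25, and 0.05 after quantile normalization, which gives all arrays the same distribution. Calls were split 65.9% higher under the first scaling and 52.6% higher under the second, and 76.8% when normexp background correction preceded the 75th percentile, so both scalings are given for most results. The targeted gene gave no firm check of the labels, since both Ppargc1a probes fell short of the background criterion for testing in both groups. Its probe A_51_P279038 read -6.21, -6.37 and -7.71 in controls and -5.70, -5.28 and -5.90 with overexpression, without overlap. The difference on this dim probe was 1.14 on the log2 scale, and 0.78 in the authors' normalized values. Its probe A_55_P2745394 read -6.84, -6.33 and -7.10 in controls and -7.00, -6.11 and -6.40 with overexpression, with overlap, a difference of 0.26 on the log2 scale, and -0.06 in the authors' normalized values. Every direction below rests on the labels. Of 12 microglia and macrophage markers, 10 were well above background on all 6 arrays, while Cx3cr1 and P2ry12 were above it on 0 arrays. The summed level of the 12 was 8760 to 9054% of the 75th percentile in controls and 12559 to 14887% with overexpression. Of the 10 tested, 5 were called higher and 1 lower, and after quantile normalization 0 higher and 1 lower. Beside these and the marker counts below, 34.8% of all tested genes were called higher and 18.5% lower. After quantile normalization the shares were 21.4% and 21.1%. Tmem119 fell by 2.68 on the log2 scale, to 15.6% of the control level (adjusted p = 0.000080, limma), and passed under all 19 alternatives. Itgam was higher by 0.75, Tyrobp by 0.74 and Cd68 by 0.46, but after quantile normalization they stood at 0.11, 0.12 and -0.16. Sums weight the brightest member most and here follow the 75th percentile scaling. The other marker lists were also higher in sum with overexpression, 25.4 to 30.1% against 42.9 to 56.0% for 5 astrocyte markers (2 of 4 tested higher, 0 lower, Slc1a3 above background on 0 arrays), 2613 to 3159% against 3790 to 5131% for 5 neuron markers (2 higher, 1 lower, and 1 higher, 2 lower after quantile normalization), and 105 to 115% against 118 to 133% for 5 oligodendrocyte markers (1 higher, 0 lower). The astrocyte and oligodendrocyte counts were the same after quantile normalization. The median log2 fold change of the neuron markers was -0.25, and -0.36 after quantile normalization. Among them Tubb3 fell by 0.63 on the log2 scale, while Snap25 was higher by 0.71 but stood at 0.08 after quantile normalization. Their part in the results below was not tested. Replicates carry numbers only, and nothing says that they were separate cultures, so p-values measure the spread between these samples. In bulk RNA, fewer cells expressing a gene and less RNA per cell cannot be told apart. An exact permutation test of 3 against 3 arrays cannot go below 0.1, and adjusted p-values are from limma over all tested probes.

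All 13 inflammasome probes were well above background on all 6 arrays and were tested. With PGC-1α overexpression 5 were higher, 3 were lower and 5 did not pass an adjusted p of 0.05 (limma). Among all tested probes 35.4% were called higher and 18.4% lower, and 8 of the 13 members stood against 53.8% of all probes in either direction, so the members' shares were close to those of the array as a whole. After quantile normalization 2 were higher and 4 lower, where 22.9% and 20.6% of all probes were called, and 6 of 13 stood against 43.5% in either direction. Under both scalings 2 were higher (Txnip probe 1 and Nek7 probe 2) and 3 lower (Nlrp3, Aim2 probe 2 and Casp4), beside 22.8% and 18.0% of all probes. The groups did not overlap for 9 of the 13 probes, while 63.8% of all tested probes showed no overlap. The members had a median log2 fold change of -0.06, and of -0.20 after quantile normalization. The largest differences lay in opposite directions, with Nlrp3 lower and a Txnip probe higher. The values of every probe on every array are plotted against the control mean.

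**Figure D1:**
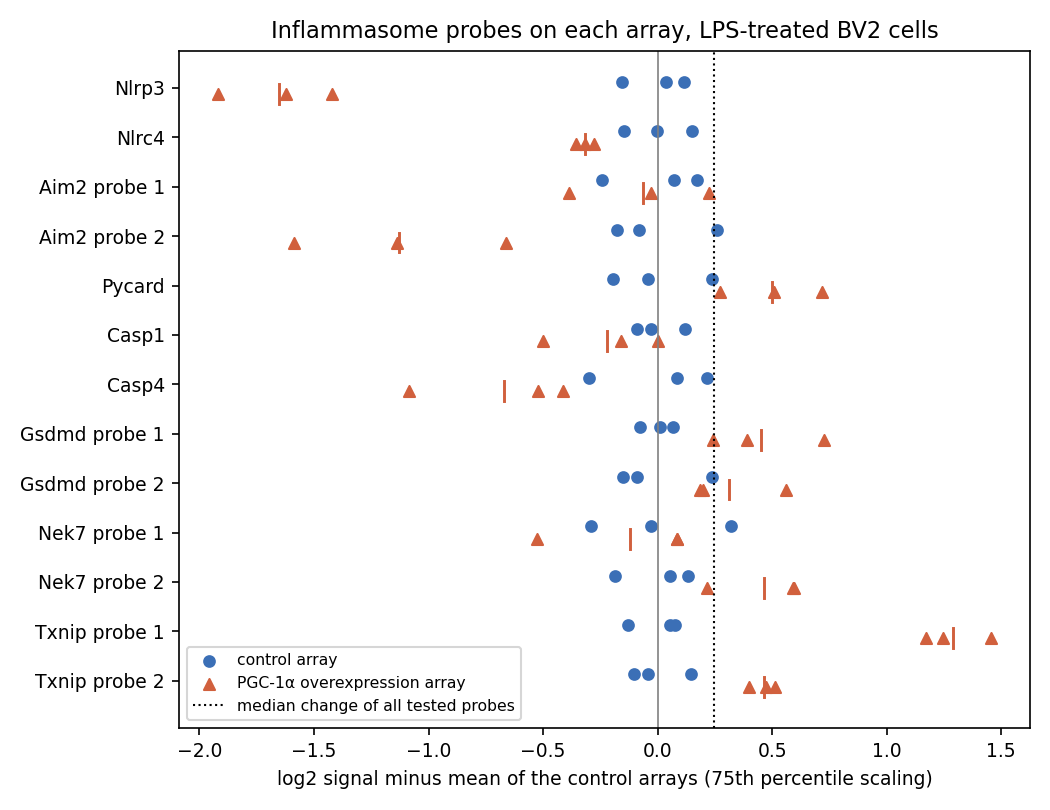
The 13 probes of the 9 inflammasome genes on each array of LPS-treated BV2 cells. The horizontal axis is the log2 signal minus the mean of the 3 control arrays under 75th percentile scaling; circles are control arrays, triangles PGC-1α overexpression arrays, the short bar their mean, and the dotted line the median change of all tested probes, 0.25. Nlrp3 and Aim2 probe 2 lie left of all controls and Txnip probe 1 right of them, while Casp1, Aim2 probe 1, Gsdmd probe 2 and Nek7 probe 1 overlap; the rise of Txnip probe 2 turned to -0.15 after quantile normalization.

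Among the sensors, Nlrp3 fell to 31.8% of its control level. Its probe (A_52_P650540, NM_145827) read -0.45, -0.53 and -0.73 on the control arrays and -2.49, -1.99 and -2.19 with PGC-1α overexpression. Every overexpression array was at least 1.27 log2 units below every control array. The log2 fold change was -1.65 ± 0.17 (SE, n = 3 against 3, adjusted p = 0.000372, limma), and -1.90 relative to the median of all tested probes. Quantile normalization gave the same size, -1.65 (adjusted p = 0.000598, limma). On the slide that held 2 arrays of each group the difference was -1.75, and on the other slide, with 1 array of each group, -1.47. It stayed past the threshold under all 19 alternative settings, between -1.93 and -1.37. Of all tested probes, 3.03% had a lower log2 fold change.

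Nlrc4, the sensor of bacterial flagellin and secretion-system proteins, passed the threshold under some settings only. The probe (A_52_P655136, NM_001033367) read -3.16, -2.86 and -3.02 in controls and -3.33, -3.37 and -3.29 with overexpression. The groups did not overlap, but the gap between them was 0.13. The log2 fold change of -0.32 ± 0.13 (SE) did not pass the threshold (adjusted p = 0.077, limma). After quantile normalization it was -0.42 (adjusted p = 0.023, limma), and it passed under 5 of the 19 alternatives, always in the lower direction.

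Aim2, the sensor of cytosolic DNA, gave different answers from its 2 probes. Probe 1 (A_66_P134497, NM_001013779) read 1.78, 2.09 and 2.19 in controls and 1.99, 1.63 and 2.25 with overexpression, and the groups overlapped. Its log2 fold change was -0.06 ± 0.20 (SE, adjusted p = 0.80, limma), with a 95% interval from -0.51 to 0.39, and it turned to 0.02 without control replicate 3 and to 0.10 without overexpression replicate 2. Probe 2 (A_55_P2080130, the same accession) read -1.82, -1.72 and -1.38 in controls and -2.78, -3.23 and -2.30 with overexpression. All 3 overexpression arrays lay below all controls on this probe. It fell to 45.7% of control, with a log2 fold change of -1.13 ± 0.24 (SE, adjusted p = 0.00696, limma) and -1.16 after quantile normalization. The difference was -1.23 and -0.92 within the respective slides, and it passed under every alternative that kept the probe.

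Pycard, whose product ASC links NLRP3 and AIM2 to caspase-1, was higher under the 75th percentile scaling. The probe (A_51_P438821, NM_023258) read -3.36, -3.08 and -3.51 in controls and -2.81, -2.60 and -3.05 with overexpression, so the groups were apart by 0.03. The log2 fold change was 0.50 ± 0.17 (SE, adjusted p = 0.042, limma), 1.41-fold, and 0.25 relative to the median of all probes. It was 0.52 and 0.47 within the slides. The call was lost under 9 of 19 alternatives, among them quantile normalization (0.41, adjusted p = 0.068, limma). Leaving out control replicate 1 (0.48), control replicate 3 (0.40), overexpression replicate 1 (0.50) or overexpression replicate 2 (0.39) also ended it, and the direction never changed. The adaptor and its sensor Nlrp3 thus had log2 fold changes of opposite sign, but of unlike standing on the array. Of all tested probes, 71.7% lay farther from the median change than Pycard, and 3.34% farther than Nlrp3.

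Of the caspases of both inflammasome routes, Casp4 was lower and Casp1 did not pass the threshold. Casp1, the protease that matures interleukin-1β, read 0.60, 0.66 and 0.81 in controls and 0.53, 0.19 and 0.69 with overexpression (A_55_P1990944, NM_009807). The groups overlapped, and the log2 fold change of -0.22 ± 0.16 (SE) did not pass (adjusted p = 0.28, limma), with a 95% interval from -0.60 to 0.16. It passed under 0 of 19 alternatives, whose values ran from -0.33 to -0.08. Casp4, which encodes mouse caspase-11, the receptor of intracellular LPS in the non-canonical route, read -0.21, 0.18 and 0.31 in controls and -0.43, -0.99 and -0.32 with overexpression (A_55_P2091461, NM_007609). Its groups did not overlap, and overexpression replicate 2 was the lowest array. It fell to 62.7% of control, with a log2 fold change of -0.67 ± 0.22 (SE, adjusted p = 0.033, limma), -0.66 after quantile normalization, and -0.70 and -0.63 within the slides. The call was lost without control replicate 2 (-0.63), control replicate 3 (-0.57), overexpression replicate 1 (-0.75) or overexpression replicate 2 (-0.47), and with no filter on dim probes. The promoter windows of these neighbours, printed above, were those that held the E-box (Casp1) and the κB motif (Casp4).

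Gsdmd, the pore-forming substrate of both caspases, was higher on its brighter probe under the 75th percentile scaling only. Probe 1 (A_51_P172231, NM_026960) read 2.38, 2.32 and 2.23 in controls and 2.70, 3.04 and 2.55 with overexpression, with no overlap. Its log2 fold change was 0.45 ± 0.16 (SE, adjusted p = 0.043, limma). After quantile normalization it was 0.11 (adjusted p = 0.50, limma), and 10 of 19 alternatives ended the call. Those included leaving out any array but overexpression replicate 3: 0.49, 0.46 and 0.41 without control replicates 1, 2 and 3, and 0.48 and 0.31 without overexpression replicates 1 and 2. Probe 2 (A_66_P106903) read 1.30, 0.91 and 0.97 in controls and 1.26, 1.62 and 1.24 with overexpression. Here the groups overlapped, and 0.31 ± 0.17 (SE, adjusted p = 0.15, limma) passed under 0 alternatives. The difference between the 2 Gsdmd probes overlapped between the groups, with a shift of -0.14.

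Of the NLRP3 partners, Nek7 encodes a kinase that bridges NLRP3 subunits, and its 2 probes also differed. Probe 1 (A_51_P295442, NM_021605) read 0.73, 0.99 and 1.34 in controls and 1.11, 0.50 and 1.11 with overexpression, an overlap of the groups. The log2 fold change was -0.12 ± 0.22 (SE, adjusted p = 0.67, limma), and it turned positive with array weights (0.11), without control replicate 3 (0.04) and without overexpression replicate 2 (0.08). Probe 2 (A_66_P108499) read -1.79, -1.55 and -1.47 in controls and -1.01, -1.38 and -1.01 with overexpression, with no overlap. It rose by 0.47 ± 0.16 (SE, adjusted p = 0.042, limma), and by 0.50 after quantile normalization (adjusted p = 0.031, limma), with 0.47 and 0.46 within the slides. The call was lost without control replicate 1 (0.37), 2 (0.49) or 3 (0.53), without overexpression replicate 1 (0.40) or 3 (0.40), with the median as the scaling point (0.36), and with no filter on dim probes.

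Txnip encodes thioredoxin-interacting protein, an α-arrestin that binds thioredoxin, limits glucose uptake and has been described as an NLRP3 ligand. Probe 1 (A_55_P2006255, NM_001009935) read 3.96, 3.94 and 3.75 in controls and 5.13, 5.34 and 5.05 with overexpression. All overexpression arrays were above all controls by at least 1.09 log2 units. The level rose 2.45-fold, a log2 fold change of 1.29 ± 0.14 (SE, adjusted p = 0.000512, limma), with 1.29 and 1.30 within the slides. Relative to the median of all probes it was 1.05, and after quantile normalization 0.68 (adjusted p = 0.00723, limma), and the call stood under all 19 alternatives, from 0.65 to 1.35. Probe 2 (A_66_P131361) read 4.42, 4.23 and 4.16 in controls and 4.67, 4.78 and 4.74 with overexpression, also with no overlap. Its log2 fold change was 0.46 ± 0.13 (SE, adjusted p = 0.020, limma), but -0.15 after quantile normalization (adjusted p = 0.40, limma), so its direction depended on the scaling. The call was also lost without control replicate 2 (0.44), control replicate 3 (0.41) or overexpression replicate 1 (0.49).

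**Figure D2:**
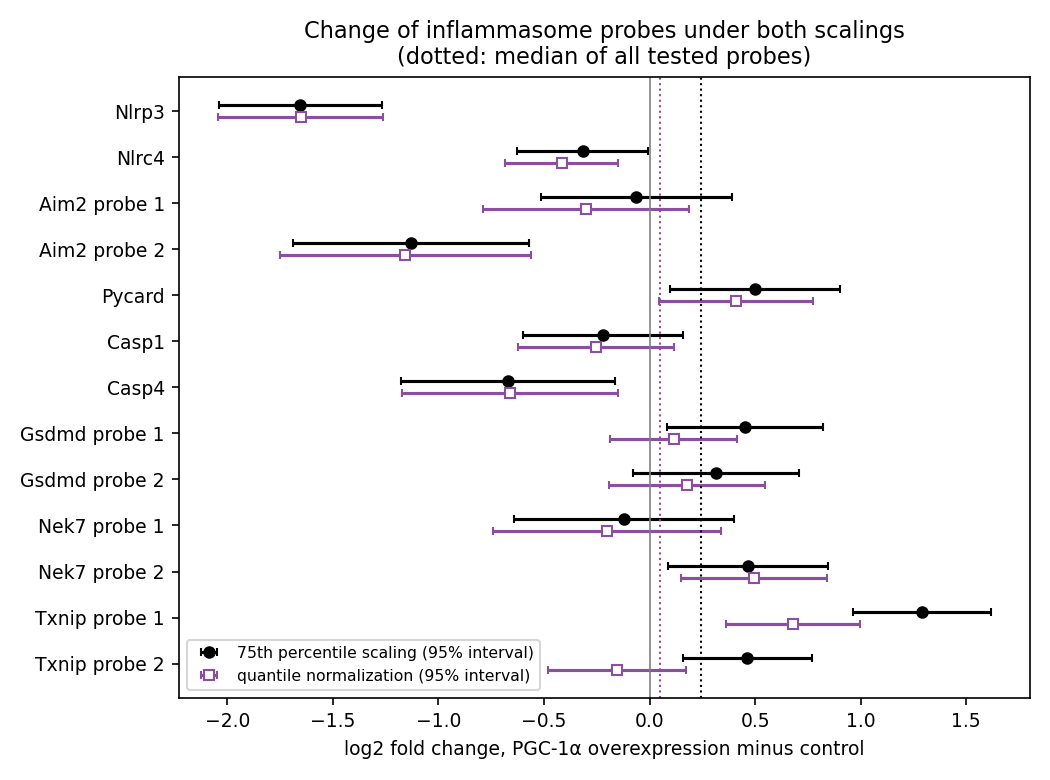
Log2 fold change of each inflammasome probe, PGC-1α overexpression minus control (3 arrays each), with its 95% interval from limma. Filled circles are 75th percentile scaling and open squares quantile normalization, and the dotted lines are the medians of all tested probes, 0.25 and 0.05. Nlrp3, Aim2 probe 2 and Casp4 keep their place under both scalings, Txnip probe 1 goes from 1.29 to 0.68, and Txnip probe 2 goes from 0.46 to -0.15.

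The 3 probes that quantile normalization moved most were both Txnip probes and Gsdmd probe 1. When all tested probes were ordered by mean signal and split into 10 bins of 3892, the median log2 fold change was 0.37 in the dimmest bin, -0.03 in the seventh and 0.53 in the brightest, and 0.13, -0.01 and 0.00 after quantile normalization. These 3 probes belonged to the brightest bin. Txnip probe 1, at 1.29, was far above the median of its bin, whereas Txnip probe 2 at 0.46 and Gsdmd probe 1 at 0.45 were below it. Nlrp3, at -1.65, lay in the sixth bin, where the middle 50% of probes ran from -0.52 to 0.53. Nek7 probe 2, at 0.47, lay in the same bin and within that range. Pycard, at 0.50, lay in bin 4 and within its middle 50%, -0.45 to 0.72.

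**Figure D3:**
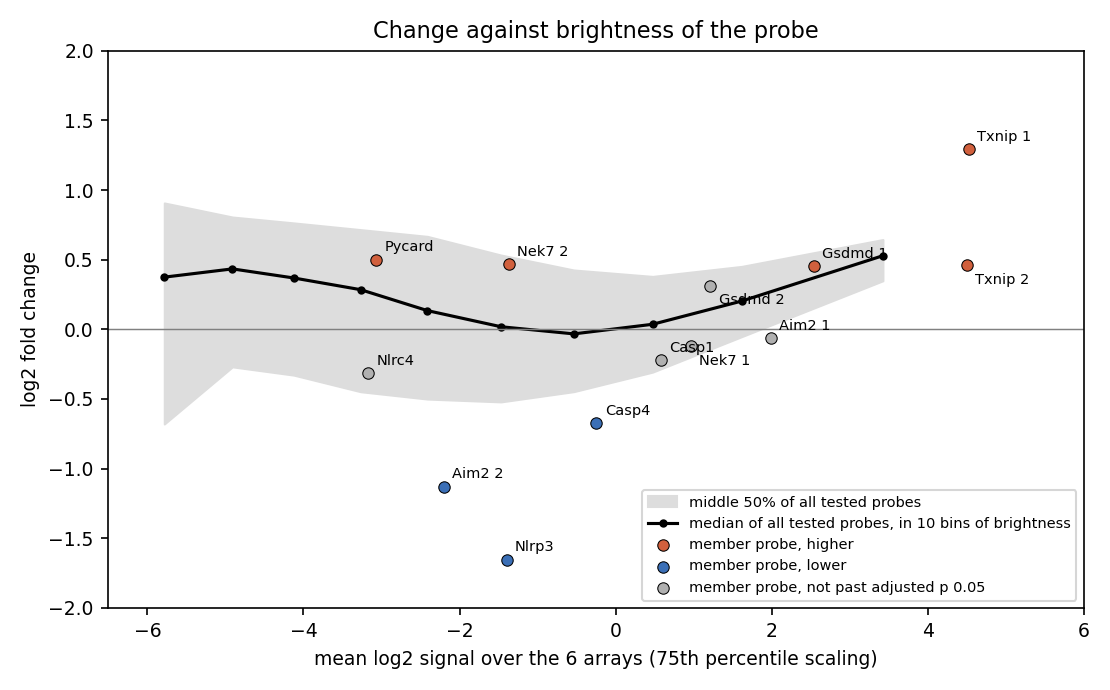
Log2 fold change against mean log2 signal over the 6 arrays under 75th percentile scaling. The line and band give the median and the middle 50% of all tested probes in 10 bins of brightness, and the points are the 13 inflammasome probes. The points are coloured red for higher, blue for lower and grey for not past the threshold. Nlrp3, Aim2 probe 2 and Casp4 lie below the band, and so, narrowly, does Aim2 probe 1, which did not pass the threshold. Txnip probe 1 is at 1.29. Txnip probe 2, at 0.46 and turned to -0.15 after quantile normalization, lies below the median of its bin, 0.53 (the band ends at the median brightness of that bin).

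For the 4 genes with 2 probes, subtracting probe 1 from probe 2 removes any offset shared by all probes of an array. It does not remove a shift that depends on brightness. The 2 probes lay in different brightness bins for Aim2, Gsdmd and Nek7, and in the same bin for Txnip. In Aim2 the difference between the probes was -3.66 ± 0.13 (SD, n = 3) in controls and -4.73 ± 0.16 (SD, n = 3) with overexpression, a shift of -1.07 with no overlap. In Txnip it went from 0.39 ± 0.09 to -0.44 ± 0.12 (SD, n = 3 each), a shift of -0.83 with no overlap. In Nek7 it went from -2.62 ± 0.16 to -2.04 ± 0.14 (SD, n = 3 each), a shift of 0.59, again with no overlap. The exact permutation test gave p = 0.1 for these 3 genes, the smallest it allows with 3 against 3 arrays. The probes of Aim2, Nek7 and Txnip thus changed by unequal amounts on the same arrays, and where each probe lies in its transcript was not known here.

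**Figure D4:**
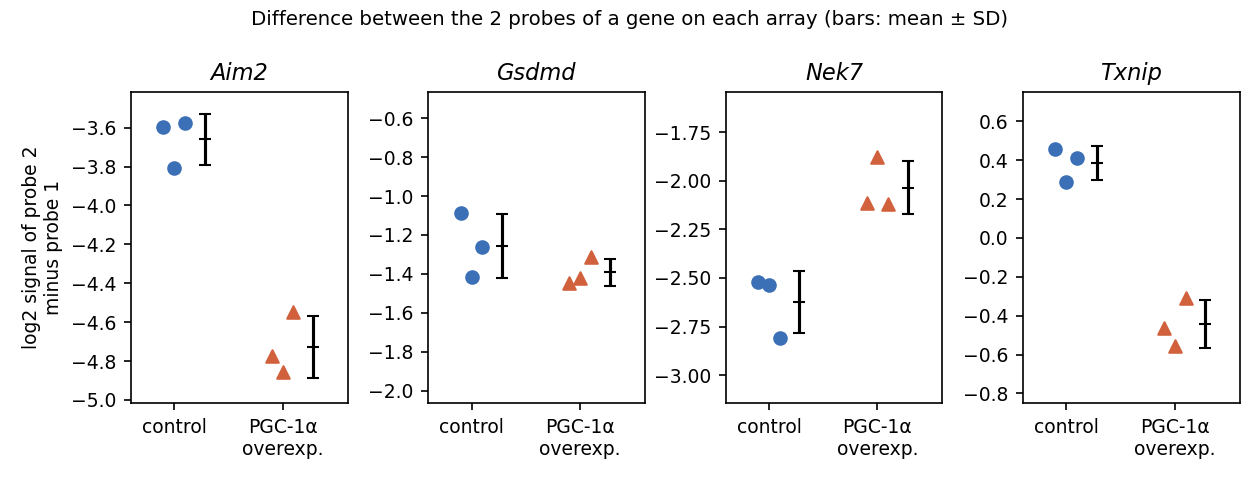
Difference between the 2 probes of a gene on each array, in log2 units (probe 2 minus probe 1), for Aim2, Gsdmd, Nek7 and Txnip. Circles are control arrays, triangles PGC-1α overexpression arrays, and bars the mean ± SD of 3 arrays; the vertical axes start at different values but span the same length. The groups are apart in Aim2, Nek7 and Txnip and overlap in Gsdmd.

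The genes whose pattern over the 6 arrays was most like that of Nlrp3 were Fam20c, Rab3il1, Gmppb, Taf1c and Slc38a3. Likeness was the root mean square difference after each gene was centred on its own mean, over 6 arrays and 16296 genes, and it was 0.037 for Fam20c, a secretory-pathway kinase, and 0.066 to 0.074 for the others. Their log2 fold changes, -1.74 to -1.63, were close to that of Nlrp3 because the measure selects for it.

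Beyond the 9 genes, 8 lists of other pathway genes held 78 genes, of which 77 had a probe and 68 were tested, each by its brightest tested probe. Of the 68, 21 were higher, 15 lower and 32 not past the threshold (limma), where 34.8% of all tested genes were higher and 18.5% lower. After quantile normalization 12 were higher and 18 lower, where 21.4% and 21.1% of all genes were called. Under both scalings 12 were higher and 15 lower, beside 21.3% and 18.1% of all genes. The lists had a median log2 fold change of 0.21, beside 0.23 for all genes, and the groups did not overlap for 46 of the 68 genes, beside 65.5% of all genes. Without control replicate 1 the number called higher was 13. Genes outside the naming rule are named where a count is small and were chosen after their values were seen.

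**Figure D5:**
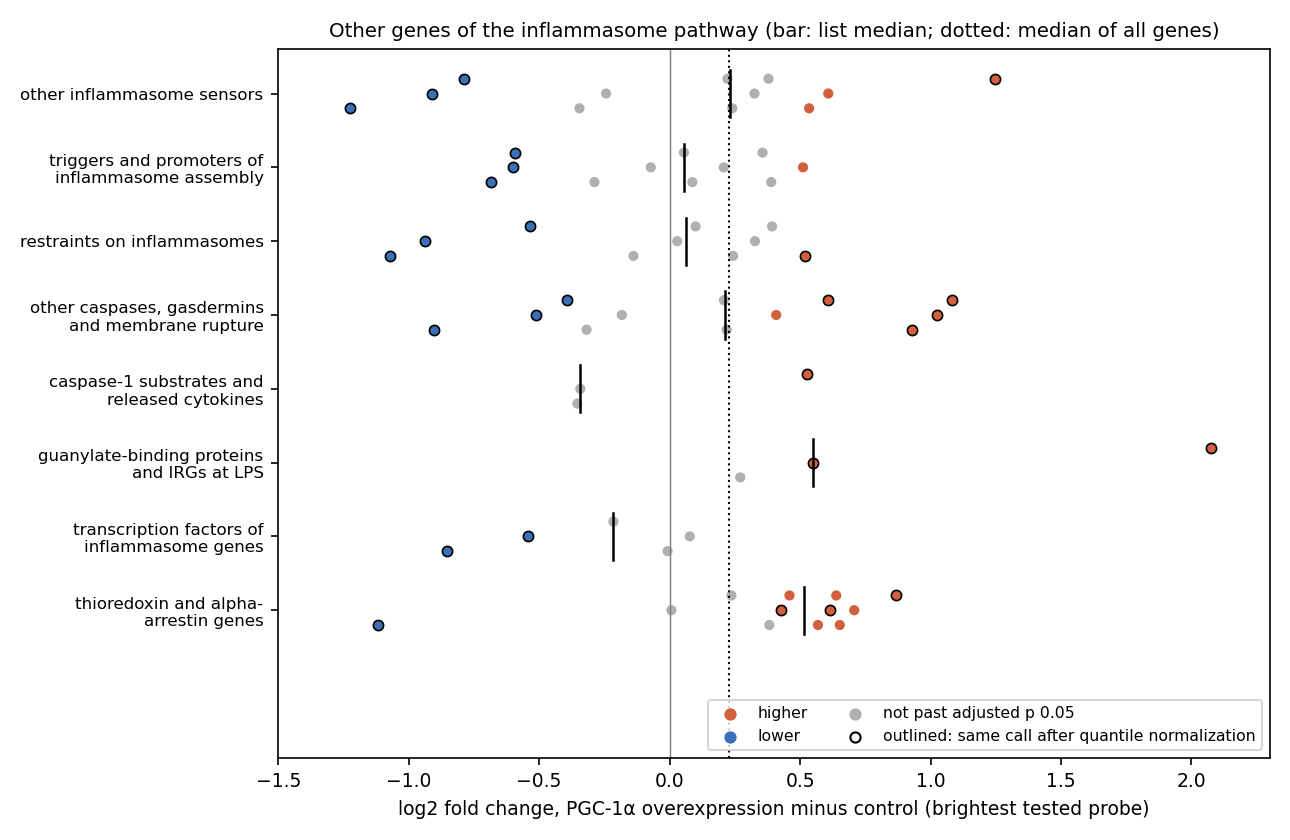
Log2 fold change of the 68 tested genes of the 8 other pathway lists, PGC-1α overexpression minus control, each by its brightest tested probe under 75th percentile scaling. Red points are higher, blue points lower and grey points not past an adjusted p of 0.05; outlined points had the same call after quantile normalization, short bars are list medians and the dotted line is the median of all genes, 0.23. Of the red points 12 and of the blue points all 15 are outlined, and the red point farthest right is Gbp2, not well above background in controls, and the red points without an outline, 5 of 9 in the thioredoxin list, lost the call.

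Of 12 tested other sensors, 3 were higher and 3 lower. Mefv, which encodes the inflammasome sensor pyrin, rose by 1.25 ± 0.25 on its brightest probe (SE, adjusted p = 0.00551, limma). The dimmer Mefv probe, at 0.53, did not pass (adjusted p = 0.15, limma), and its groups overlapped. The NAIP receptors, which bind flagellin or secretion-system proteins for NLRC4, did not move together: Naip6 fell by 1.23 ± 0.28 (SE) and Naip1 by 0.79 ± 0.17 (SE), with adjusted p-values of 0.00880 and 0.00661 (limma), while Naip2 at -0.24 did not pass. Naip5 was higher by 0.61, but -0.01 after quantile normalization, with values on 2 of the 3 control arrays. The NAIP genes are closely related copies, so signal may be shared between their probes. Nlrp10 fell by 0.91 ± 0.13 (SE, adjusted p = 0.00138, limma), and Nlrp1a was higher by 0.53 on its brightest probe, but -0.09 after quantile normalization. The dimmer Nlrp1a probe, A_55_P2023146, was higher by 0.79 (adjusted p = 0.010, limma), and by 0.70 after quantile normalization (adjusted p = 0.016, limma). It passed under all 18 alternatives that tested it.

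Among 11 tested genes that trigger or promote assembly, 3 fell and 1 was higher. Those lower were Mavs (-0.68 ± 0.14, SE), the mitochondrial antiviral adaptor that can bind NLRP3, Dhx33 (-0.60 ± 0.14, SE), an RNA helicase, and Panx1 (-0.59 ± 0.15, SE), a membrane channel. The one higher, Brcc3, which encodes an NLRP3 deubiquitinase, stood at 0.51, and at 0.25 after quantile normalization, where it no longer passed. P2rx7 did not pass on its brightest probe (0.21), but its probe A_52_P393314 stood at -1.68 (adjusted p = 0.000263, limma). That P2rx7 probe also stood at -1.68 after quantile normalization and passed under all 18 alternatives that tested it. A further P2rx7 probe, at -0.31, did not pass. Among 10 tested restraints, 3 fell as well and 1 was higher. Tnfaip3, the gene of the NF-κB inhibitor A20, fell by 1.07 ± 0.20 (SE, adjusted p = 0.00418, limma), Ptpn22, a phosphatase, by 0.94 ± 0.17 (SE), and Serpinb1a, a protease inhibitor, by 0.54 ± 0.12 (SE). Pstpip1, which encodes a pyrin-binding protein, was higher by 0.52 ± 0.15 (SE). All 6 lower genes of both lists kept their call after quantile normalization. With 1 array left out, the calls of Panx1 (-0.54 without overexpression replicate 1), Brcc3 (0.44 without control replicate 1) and Pstpip1 (0.51 and 0.49 without control replicates 2 and 3) were lost.

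Of 12 tested genes for other caspases, gasdermins and membrane rupture, 5 were higher and 3 lower. Gsdma (1.08 ± 0.18, SE) and Gsdmc (0.93 ± 0.17, SE) are gasdermins, and Zbp1 (1.03 ± 0.15, SE) and Mlkl (0.61 ± 0.14, SE) encode a nucleic acid sensor and the executioner of necroptosis, and these 4 kept the call after quantile normalization. Casp6 at 0.41 did not. Gsdme, a gasdermin cut by caspase-3, fell by 0.90 ± 0.16 (SE), Casp8 by 0.51 ± 0.13 (SE), and Ninj1, whose product ruptures the membrane of dying cells, by 0.39 ± 0.13 (SE). Gsdme stood at -0.21 and did not pass when normexp background correction preceded the 75th percentile (adjusted p = 0.21, limma). The call of Casp8 was lost without overexpression replicate 1 (-0.45), that of Ninj1 without any array but overexpression replicate 2 (-0.45 to -0.32), and that of Casp6 without any array but overexpression replicate 3 (0.34 to 0.43). Among the gasdermin genes, then, Gsdma and Gsdmc were higher and Gsdme lower, while Gsdmd was higher under 1 scaling only.

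Of the 3 genes for cytokines that inflammasomes release, Il1a was higher, and Il1b and Il18 passed, as lower, under 7 of 19 alternatives each. Il1b, the gene of the interleukin-1β precursor, had 2 tested probes, and the brighter one read -3.13, -3.07 and -3.31 in controls and -3.56, -3.58 and -3.43 with overexpression. The groups did not overlap, and the log2 fold change of -0.35 ± 0.13 (SE) did not pass under the 75th percentile scaling (adjusted p = 0.054, limma). After quantile normalization it was -0.46 (adjusted p = 0.020, limma), while normexp background correction with the 75th percentile gave 0.00. The dimmer Il1b probe, A_66_P114500, read -3.37, -3.34 and -3.43 in controls and -5.01, -4.88 and -4.54 with overexpression. It fell by 1.43 ± 0.16 (SE) on the log2 scale (adjusted p = 0.000514, limma), with -1.59 after quantile normalization, and passed under all 18 alternatives that tested it, at -1.64 to -0.55. The 2 Il1b probes thus differed in their call. Il18 stood likewise at -0.34 ± 0.13 (SE, adjusted p = 0.056, limma), and at -0.48 after quantile normalization (adjusted p = 0.021, limma). Il1a, whose product needs no cleavage by caspase-1 to act, rose by 0.53 ± 0.13 (SE, adjusted p = 0.0103, limma), with 0.52 after quantile normalization.

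Of 6 guanylate-binding protein and IRG genes, whose products open the route of bacterial LPS to caspase-11, 3 were tested. Gbp2 was well above background on 0 of 3 control arrays and on all 3 with overexpression. Under the 75th percentile scaling it was 3.62-fold higher, taking for each control array the higher of the array's lowest well-above-background signal and its own value. That floor came from any probe of the array, so this ratio is not a firm lower bound. The fitted log2 fold change was 2.07, and 1.77 after quantile normalization, but 0.34 when normexp preceded the quantile step. Gbp2 met the background filter only through the overexpression arrays, where it was higher, so its call is not independent support. Gm12250 (Irgb10) was higher by 0.55 ± 0.19 (SE), with overlapping groups, and the call was lost without control replicate 1 (0.44), control replicate 3 (0.48), overexpression replicate 1 (0.50) or overexpression replicate 2 (0.51). Of 5 transcription factors of inflammasome genes, Irf8, which drives Naip expression, fell by 0.85 ± 0.15 (SE, adjusted p = 0.00367, limma). Irf2, which drives Gsdmd expression, fell by 0.54 ± 0.13 (SE, adjusted p = 0.0101, limma). By their brightest probes Irf1, Rela and Nfkb1 did not pass. The dimmer Irf1 probe, A_55_P2000062, fell by 0.47 (adjusted p = 0.023, limma), and by 0.48 after quantile normalization (adjusted p = 0.024, limma). It passed under 13 of 18 alternatives. The dimmer Rela probe, at -0.42, passed only after quantile normalization (-0.43, adjusted p = 0.047, limma) of these 2 scalings. In the thioredoxin and α-arrestin list around Txnip, 8 of 12 were higher and 1 lower, beside 34.8% and 18.5% of all tested genes. After quantile normalization 3 were higher and 1 lower, beside 21.4% and 21.1%. Arrdc4, the closest relative of Txnip in its regulation by glucose, rose by 0.87 ± 0.12 (SE, adjusted p = 0.00139, limma), and by 0.46 after quantile normalization. Mlxip, the gene of the glucose-responsive factor MondoA, fell by 1.12 ± 0.13 (SE, adjusted p = 0.000712, limma), and Mlxipl, the gene of its relative ChREBP, was higher by 0.71 ± 0.20 (SE), but did not pass after quantile normalization (0.50), without control replicate 1 (0.61) or without control replicate 2 (0.66). The dimmer Mlxip probe, at -0.31, did not pass (adjusted p = 0.16, limma), and its groups overlapped. In this list 3 of the 8 higher genes, Arrdc2, Arrdc3 and Arrdc4, kept the call after quantile normalization, though Arrdc3 (0.43) lost it without any array but overexpression replicate 3 (0.35 to 0.46).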

How the data were processed

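The deposited intensity values were read by the authors with Agilent Feature Extraction 11.5.1.1, with background subtracted and no normalization between arrays (array design on mm9). A second deposited table holds log2 values of 42110 probes, normalized by the authors in GeneSpring by a procedure not given in the sources used here. Its column medians are 8.29, each column correlates with its own array's log2 intensity (r of 0.9988 or higher across probes), so its direction and scale are settled and its centring is not.

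Here log2 intensity minus each array's 75th percentile over 59305 spots was used, without spots marked as outliers (149 to 1590 per array). Repeated spots were averaged. Accessions matched 59.7% of probes to RefSeq genes. Tested probes had a value on 2 or more arrays per group and were above background (Agilent's well-above-background mark) throughout 1 group or both. This left 38920 probes and 17063 genes, and 1605 of these probes lacked a value on some array. The test was limma's lmFit and eBayes (limma 3.58.1, R 4.3.3), two-sided, and p-values were adjusted by Benjamini-Hochberg across all tested probes with a threshold of 0.05. Steps were tested on simulated data. Tables and plots used Python 3.11.15, pandas 2.3.3, scipy 1.17.1 and matplotlib 3.10.9. Slides were taken from the labels.

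The members and lists were chosen with earlier results of these data known. Named are all members, in each other list the 3 genes with the largest change among those past the threshold without overlap, Il1b, Il18 and the Naip genes, and the 5 genes most like Nlrp3. Alternatives were quantile normalization, normexp (offset 50, on median signal and background) with either scaling, the median as scaling point, 2 other filters on dim probes, outlier spots kept, slide or replicate block, trend with robust variance, array weights (their iteration stopped before full convergence), the authors' values, the brightest probe per gene, and each array left out.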

Additional observations from a re-analysis of the deposited data

How the results depend on the processing

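The number of arrays and, for dim probes, the background limit the precision. The number of probes called, 20943, was 9633 when each gene was represented by its brightest probe alone, since fewer features are tested, and 15583 to 21565 with 1 array left out. The count of members called higher moved most: from 5 to 2 under quantile normalization, normexp with quantile normalization, no filter on dim probes and the authors' values, to 1 with the median as scaling point, and to 3 with the brightest probe per gene, where only 9 probes remain. It was 1 to 4 with 1 array left out. Members called lower were 2 to 3 with 1 array left out, and this count stayed within 1.5 times of 3 under all 19 alternatives. Other pathway genes called higher went from 21 to 12 with quantile normalization, 11 with normexp and quantile normalization, 11 with the authors' values, and 13 to 19 with 1 array left out; those called lower, 15, were 12 to 15.

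Among the members and the genes named by rule, signs turned in 5 features, and the cause was not tested: Aim2 probe 1 (0.02 and 0.10 without control replicate 3 and overexpression replicate 2), Nek7 probe 1 (0.11 with array weights, and from -0.26 to 0.085 with 1 array left out, positive without those same arrays at 0.040 and 0.085), Txnip probe 2 (-0.15 with quantile normalization, -0.22 with normexp and quantile normalization, -0.16 with the authors' values), Naip5 (-0.0084 and -0.031 with the former pair of settings) and Il1b (0.0017 with normexp and the 75th percentile). Of the other pathway genes called, Nlrp1a, Txn1 and Prdx1 also turned on their brightest probes, to -0.09, -0.10 and -0.04 with quantile normalization. The dimmer Nlrp1a probe did not turn, at 0.53 to 0.90 over its alternatives.

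Whether the replicate numbers pair the samples could not be decided. Deviations from the group means correlated at -0.21, 0.00 and 0.59 for the same numbers, across 37315 probes, which are not independent. For unlike numbers they correlated at -0.52 to 0.53. Deviations within a group of 3 cancel out, so these correlations are tied together. The arrays numbered 3 were also those on the slide with 1 array of each group. With the replicate block 22803 probes were called, with 5 members higher and 3 lower. With the slide as a block 24083 were called.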

Other observations

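Several other pathway genes had 2 or more tested probes of unequal change, while the counts by gene above rest on the brightest probe. The second Dhx33 probe stood at -2.59 beside -0.60 for the brighter probe, the second Mlxip probe at -0.31 beside -1.12, the second Mefv probe at 0.53 beside 1.25 and the second Naip5 probe at 0.11 beside 0.61 (log2 fold changes). The second probes of Mlxip, Mefv and Naip5 did not pass the threshold, while that of Dhx33 did. The second Bcl2 probe, A_52_P534870, stood at -0.92 beside -0.14, and passed under all 18 alternatives that tested it. Also unequal were the probes of P2rx7 (-1.68 and -0.31 beside 0.21), Irf1 (-0.47 beside -0.22), Rela (-0.42 beside 0.08) and Nlrp1a (0.79 beside 0.53). The Zbp1 probes, at 1.03 and 1.04, and the Naip1 probes, at -0.79 and -0.59, were closer to each other. Casp12, Trim31, Gbp2b, Ifi209 and Ifi213 were well above background on no array of either group.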
